A study of Mus musculus with 6 samples.

Results

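The circadian clock genes described here are 10 genes of the molecular clock, Arntl, Clock, Per1, Per2, Per3, Cry1, Cry2, Nr1d1, Nr1d2 and Dbp, taken by exact gene symbol from a table of 19618 genes measured in mouse tail keratinocytes. All 10 were in the table and all 10 passed the filter on low counts, with at least 467 estimated counts in every library. The study set keratinocytes, which make up most of the epidermis, of mice with a knockout of the ciliary receptor Gpr161 in that layer beside those of control mice, with 3 libraries per group. Knockout mice carried K14cre, a Cre recombinase driven by the keratin 14 promoter of basal keratinocytes, together with floxed Gpr161 on both alleles. Controls lacked K14cre per the labels but also carried floxed alleles: both alleles were floxed in control 1, and a single allele in the other 2. All mice were 4 months old, and skin pieces spent a night in trypsin and dispase in the cold before the epidermis was scraped off and the cells were strained and lysed. Strain and the hour of tissue collection are not given in the sources used here.

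The clock is a feedback loop of transcription. BMAL1 (encoded by Arntl) and CLOCK form the positive limb, a dimer that binds E-box sequences and switches on the Per and Cry genes, whose proteins return to the nucleus as the negative limb and inhibit the dimer. The same dimer drives Nr1d1 and Nr1d2, which encode the REV-ERB repressors that act on the Arntl gene through elements shared with the ROR activators, and Dbp, whose protein activates genes through D-box sequences. Over the day, Arntl transcripts are therefore known to run opposite to those of Nr1d1 and Dbp in most tissues. In skin, the clock is known for timing keratinocyte proliferation, DNA repair and hair cycle genes.

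Arntl had the largest log2 fold change of the members, without passing the test with genotype as the only term. Upstream sequence is shown for it and for the members whose window held a searched element (Per1, Per3 and Cry1). Each is the 250 bases before an annotated start, 5′ to 3′, from RefSeq promoters of GRCm38.p6; 9 of the 10 members had an entry, some with several starts. Capitals mark matches on either strand to the E-box (CACGTG) or the D-box (TTATGNAA). The core of the ROR and REV-ERB element (TAGGTCA) and the cAMP element (TGACGTCA) were also searched and matched in none of the members' windows. The Arntl window is chr7:113207215-113207464 on the plus strand and held no searched element.
Arntl: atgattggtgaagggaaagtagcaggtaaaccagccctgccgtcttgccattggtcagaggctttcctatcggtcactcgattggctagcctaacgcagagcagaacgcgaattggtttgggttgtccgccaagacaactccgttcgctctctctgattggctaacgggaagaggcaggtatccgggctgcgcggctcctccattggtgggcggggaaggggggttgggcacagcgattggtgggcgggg
The Per1 window is chr11:69098699-69098948 on the plus strand, inside the annotated gene and before a downstream start. It held an E-box 166 to 161 bases and a D-box 24 to 17 bases before that start.
Per1: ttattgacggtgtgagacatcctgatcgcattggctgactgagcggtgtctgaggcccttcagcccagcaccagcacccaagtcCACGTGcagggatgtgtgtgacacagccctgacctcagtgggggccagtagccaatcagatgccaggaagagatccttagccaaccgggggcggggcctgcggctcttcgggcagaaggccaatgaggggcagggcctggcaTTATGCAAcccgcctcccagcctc
The Per3 window is chr4:151044666-151044915 on the minus strand and held 2 D-boxes, at 205 to 198 and 158 to 151 bases before the start.
Per3: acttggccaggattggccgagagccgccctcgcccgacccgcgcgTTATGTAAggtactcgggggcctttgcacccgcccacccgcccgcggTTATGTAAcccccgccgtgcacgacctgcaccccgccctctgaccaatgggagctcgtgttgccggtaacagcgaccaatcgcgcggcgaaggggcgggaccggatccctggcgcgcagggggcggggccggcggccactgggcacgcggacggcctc
The Cry1 window is chr10:85185055-85185304 on the minus strand and held an E-box 60 to 55 bases before the start.
Cry1: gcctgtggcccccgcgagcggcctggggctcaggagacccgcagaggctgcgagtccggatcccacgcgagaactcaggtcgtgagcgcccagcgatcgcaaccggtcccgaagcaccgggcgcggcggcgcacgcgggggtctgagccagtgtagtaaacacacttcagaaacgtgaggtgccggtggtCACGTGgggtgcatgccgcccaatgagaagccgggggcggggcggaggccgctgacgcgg
Over all 32851 windows of the RefSeq table, 6.02% held this E-box, 3.07% this D-box, 2.23% the ROR core and 1.55% the cAMP element. No match says only that these letters are not in the window.

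The libraries are named by the tag in their column, DE679, DE685 and DE688 for knockout and DE680, DE684 and DE689 for control, since no column carries a sample title. Total estimated counts were 17157864 to 25344399 per library. Gli1, a target and effector of Hedgehog signalling that Gpr161 restrains, was at 66.7 to 74.5 CPM across knockout and 8.25 to 9.96 CPM across control libraries, while Gpr161 itself was at 25.9 to 33.6 and 30.2 to 32.2 CPM, so the whole-gene count of the target does not check the labels (CPM scales counts to a common library total, with TMM correcting for library composition). Keratinocyte markers were high in every library, with 27100 to 34900 CPM summed over 7 basal and 26900 to 52800 CPM over 8 differentiated markers. DE684 and DE685 held Y-linked transcripts and the other 4 libraries Xist. The tags run in neighbouring numbers (DE679 and DE680, DE684 and DE685, DE688 and DE689), each a knockout and a control; no label says what the numbers stand for, and the labels do not say whether libraries came from separate mice, so p-values measure the spread between these libraries.

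None of the 10 clock genes passed the test between genotypes (edgeR quasi-likelihood test, Benjamini-Hochberg adjusted over 15422 genes, threshold 0.05), where 1.6% of all genes tested did (1.24% higher and 0.357% lower in the knockout). The lowest adjusted p among them was 0.131, for Clock. At an unadjusted p under 0.05 there were 2 members, Arntl and Clock, both lower in the knockout, that is 20.0% of the members beside 19% of all genes tested. The median log2 fold change of the members was −0.02, with 5 higher and 5 lower, and that of all genes tested was −0.0036. In DESeq2, which called 6.05% of the genes it gave an adjusted p, the members called numbered 0, with Clock (adjusted p 0.0515) and Arntl (adjusted p 0.055) just above the threshold. In a second fit that took the neighbouring numbers as blocks, so that each knockout library was compared with the control of the next number, 1 member, Arntl, passed, beside 4.56% of all genes tested, and 3 members, Arntl, Clock and Dbp, had an unadjusted p under 0.05, beside 23.2%.

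Arntl (chromosome 7, 113207465 to 113314126, plus strand, GRCm38), the gene of BMAL1, stood at 27.9, 27.7 and 40.0 CPM in the knockout libraries DE679, DE685 and DE688. Control libraries DE680, DE684 and DE689 stood at 39.1, 42.1 and 57.7 CPM. The groups overlapped, but only because DE688 lay just above DE680. Within each neighbouring pair the knockout library was the lower, by 0.48 (DE679 against DE680), 0.60 (DE685 against DE684) and 0.52 (DE688 against DE689) on the log2(CPM + 0.5) scale. Mean Arntl was 31.9 ± 7.03 CPM in knockout against 46.3 ± 10.01 CPM in control libraries (SD, n = 3 each), or 68.8% of control. With genotype as the only term, the log2 fold change was −0.54 (SE 0.19, 95% confidence interval −0.98 to −0.10, edgeR adjusted p 0.194). With the neighbouring-number blocks it was −0.54 (SE 0.07, interval −0.71 to −0.37, edgeR adjusted p 0.0107), and it passed in each of 3 such fits that left out a pair of libraries, with adjusted p from 0.022 to 0.0372. These 3 fits share libraries, so their passes are not separate evidence. Over all genes they called 276 higher and 105 lower of 15524 (without DE679 and DE680) and 352 and 120 of 15616 (without DE684 and DE685). Without DE688 and DE689 the calls were 271 and 104 of 15495. The size of the difference thus did not depend on the blocks, whereas its passing the threshold did.

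Clock (chromosome 5, 76209868 to 76304792, minus strand), the partner of BMAL1 in the dimer, was the single member whose groups did not overlap; groups did not overlap for 25.6% of all genes tested, 12.8% being lower in the knockout. It had 90.2, 98.7 and 84.3 CPM in DE679, DE685 and DE688, and 102.9, 119.0 and 110.4 CPM in DE680, DE684 and DE689. Every knockout library lay below every control library, and the level was 82.2% of control. The log2 fold change was −0.28 (SE 0.08, interval −0.47 to −0.10, edgeR adjusted p 0.131), and with the neighbouring-number blocks −0.28 (SE 0.06, edgeR adjusted p 0.0501), which also missed the threshold. The positive limb was thus lower in knockout libraries by both of its genes within every neighbouring pair, without a call in the genotype-only fit.

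**Figure D1:**
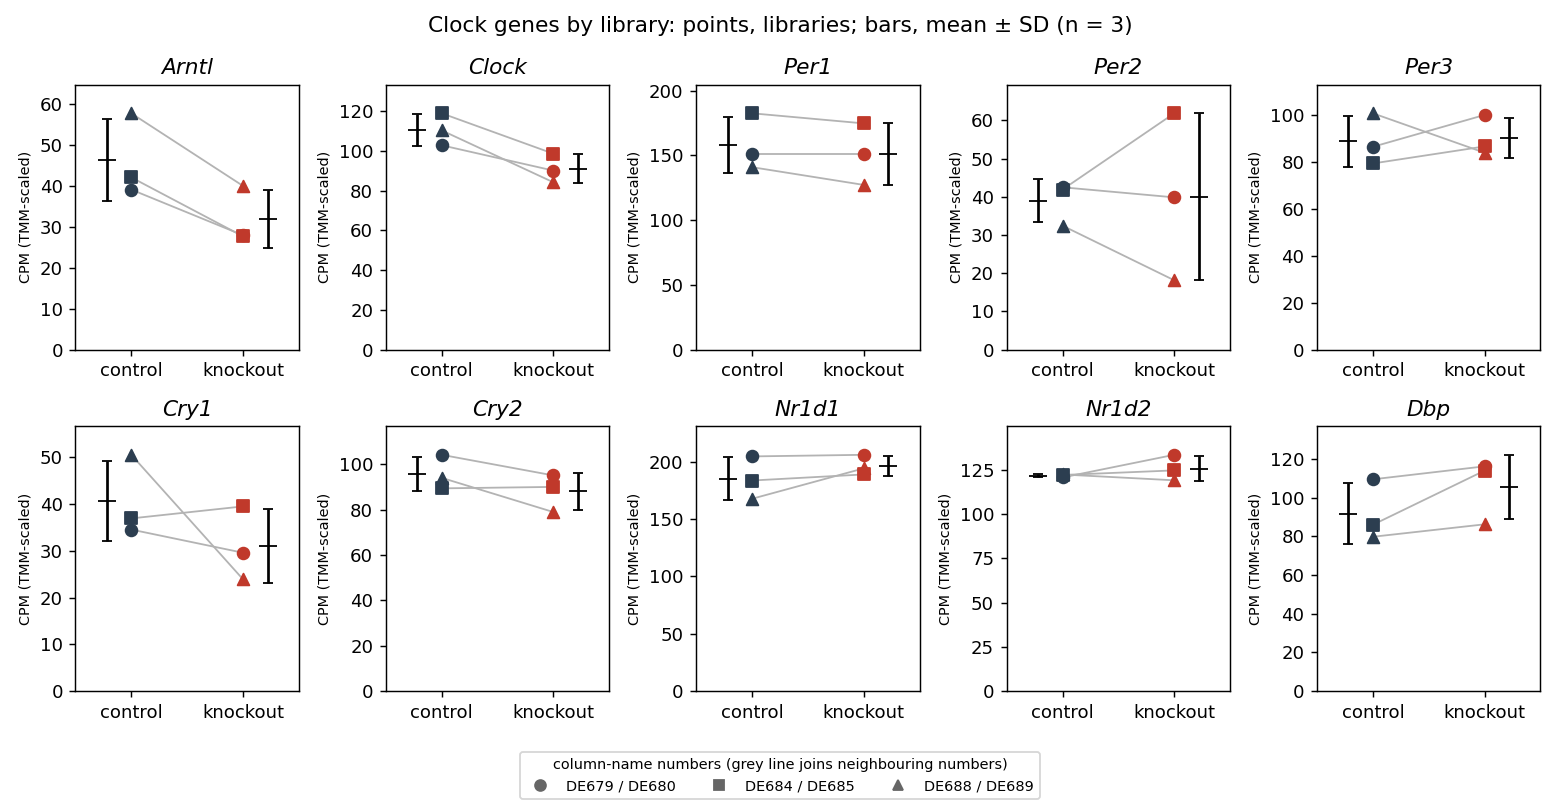
TMM-scaled CPM (y axis, from 0) of the 10 clock genes in 3 control and 3 knockout libraries; each point is a library, black bars are mean ± SD, and grey lines join libraries with neighbouring column numbers. All 3 lines of Arntl and of Clock slope down towards the knockout, while the knockout libraries of Per2 spread from 18.2 to 61.9 CPM.

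Of the negative limb, Per2 varied most. Per2 (chromosome 1, 91415982 to 91459324, minus strand), a core inhibitor of the dimer, was at 39.9, 61.9 and 18.2 CPM in the knockout libraries DE679, DE685 and DE688. Control values were closer together, at 42.5 (DE680), 41.9 (DE684) and 32.5 CPM (DE689). The knockout libraries thus held both the highest and the lowest value, a 3.41-fold spread within a group, and enclosed the control values. Its log2 fold change of 0.03 had an interval of −0.83 to 0.89 (SE 0.37, edgeR adjusted p 0.98), and its sign depended on the fit. That interval is wide, so the test does not show Per2 to be alike in the groups.

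Per1 (chromosome 11, 69095217 to 69109960, plus strand), a period gene that also responds to hormones and cAMP, had 151.3, 174.7 and 127.2 CPM in DE679, DE685 and DE688 and 151.3, 182.5 and 140.9 CPM in DE680, DE684 and DE689. Libraries with neighbouring numbers were close to each other and the pairs differed more than the genotypes. Its log2 fold change was −0.07 (interval −0.38 to 0.24, edgeR adjusted p 0.819). Per3 (chromosome 4, 151003652 to 151044665, minus strand), the period gene least needed for the rhythm itself, ranged from 84.1 to 100.2 CPM across knockout and from 79.5 to 100.9 CPM across control libraries, a log2 fold change of 0.02 (interval −0.22 to 0.26). For both genes the groups overlapped, and the intervals bound the difference more closely than that of Per2.

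Cry1 (chromosome 10, 85131700 to 85185064, minus strand), the strongest repressor of the negative limb, had 29.6, 39.5 and 23.9 CPM in DE679, DE685 and DE688. Control values were 34.6, 36.9 and 50.5 CPM in DE680, DE684 and DE689. The groups overlapped, and the mean difference rested mainly on 1 pair: within pairs Cry1 differed by −0.22, 0.10 and −1.06 on the log2 scale, the last for DE688 against DE689. Its log2 fold change was −0.40 (SE 0.20, interval −0.87 to 0.08, edgeR adjusted p 0.333), and leaving out DE689 brought it to −0.21, leaving out DE688 to −0.24. Cry2 (chromosome 2, 92403646 to 92434043, minus strand), its paralog, ranged from 79.0 to 95.1 CPM across knockout and from 89.4 to 104.2 CPM across control libraries, a log2 fold change of −0.12 (interval −0.33 to 0.08, edgeR adjusted p 0.485).

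Neither REV-ERB gene passed the test, and both intervals spanned 0. Nr1d1 (chromosome 11, 98767932 to 98775333, minus strand) had 206.0, 188.9 and 194.2 CPM in DE679, DE685 and DE688 and 204.6, 183.6 and 167.7 CPM in DE680, DE684 and DE689. The knockout library was the higher in all 3 neighbouring pairs, by 0.01, 0.04 and 0.21 on the log2 scale, and the groups overlapped. Its log2 fold change was 0.08 (interval −0.10 to 0.27, edgeR adjusted p 0.611). Nr1d2 (chromosome 14, 18204054 to 18239127, minus strand), the second REV-ERB, was the steadiest member, between 119.1 and 133.5 CPM over all 6 libraries, with a log2 fold change of 0.05 (interval −0.09 to 0.18).

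Dbp (chromosome 7, 45705088 to 45710203, plus strand), the D-box activator that serves as a direct readout of BMAL1 and CLOCK, had 116.1, 113.9 and 86.2 CPM in DE679, DE685 and DE688 and 109.4, 85.9 and 79.7 CPM in DE680, DE684 and DE689. It was the higher in the knockout library of each neighbouring pair, by 0.08, 0.40 and 0.11 on the log2 scale, while the groups overlapped. The log2 fold change was 0.20 (SE 0.15, interval −0.14 to 0.54, edgeR adjusted p 0.50), and 0.20 with the neighbouring-number blocks (SE 0.08, edgeR adjusted p 0.175). Exons of Dbp overlap those of Sphk2 on the opposite strand over 18.01% of their length, those of Nr1d1 overlap Thra over 8.55%, and those of Cry2 overlap D930015M05Rik over 4.67%. Whether counting used the strand is not stated, so these 3 counts are uncertain to that extent; Sphk2 and Thra had log2 fold changes of 0.16 and 0.13 (edgeR adjusted p 0.350 and 0.274), and the part of these partners in the members' values was not tested.

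**Figure D2:**
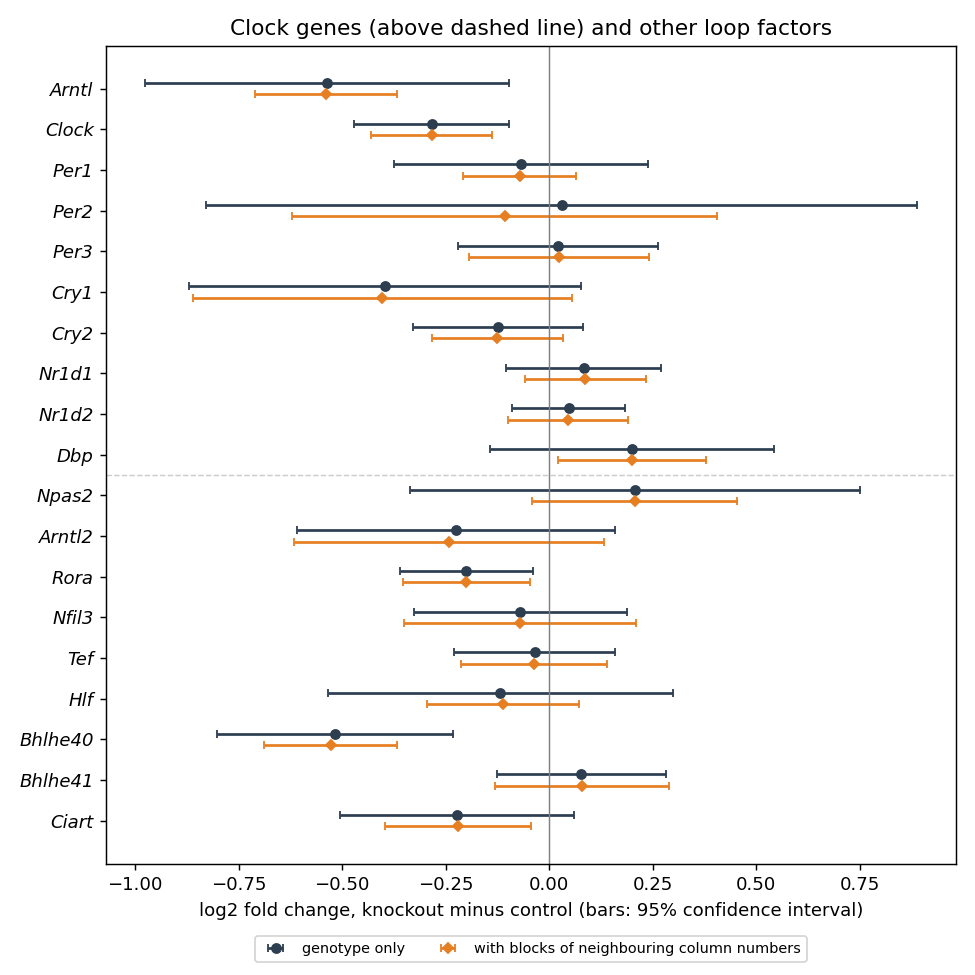
Log2 fold change, knockout minus control (x axis), of the 10 clock genes and of the 9 other loop factors tested (y axis), with 95% confidence intervals from the genotype-only fit (circles) and from the fit with blocks of neighbouring column numbers (diamonds). Point estimates barely move between the fits except for Per2, which changes sign, and the interval of Arntl narrows from −0.98 to −0.10 to −0.71 to −0.37.

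Per kilobase of annotated exon, control levels ran from Nr1d1 at 60.2 ± 6.02 CPM per kb down to Arntl at 6.15 ± 1.33 CPM per kb (SD, n = 3). Between them lay Dbp (30.6 ± 5.23), Per1 (28.1 ± 3.85), Nr1d2 (22.5 ± 0.171), Cry2 (15.2 ± 1.19), Cry1 (12.2 ± 2.58), Per3 (9.26 ± 1.13), Clock (8.07 ± 0.587) and Per2 (6.65 ± 0.963). Both genes of the dimer were among the 3 lowest of these levels, together with Per2. Neighbours whose mean ± SD ranges met were Dbp and Per1, Cry2 and Cry1, Cry1 and Per3, Per3 and Clock, Clock and Per2, and Per2 and Arntl. These ranges do not resolve the order within those pairs. The order within each library was not tested.

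The members did not vary as a single group over the 6 libraries. DE688 held the lowest value of 6 members (Clock, Per1, Per2, Cry1, Cry2 and Nr1d2) and the highest of none. DE679 held the highest value of Nr1d1, Nr1d2 and Dbp, and DE689 the highest of Arntl, Per3 and Cry1 together with the lowest of Nr1d1 and Dbp. Between the library with the highest and that with the lowest level, members differed by 1.122-fold (Nr1d2) to 3.41-fold (Per2).

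Arntl and Dbp ran opposite to each other. Pearson's r of their log2(CPM + 0.5) values over the 6 libraries was −0.88 (exact permutation over 720 pairings, two-sided p 0.0042, Benjamini-Hochberg adjusted p over 45 pairs 0.188) and Spearman's rho −0.94 (exact permutation p 0.0167, adjusted p 0.750). Without DE689 and DE685, the libraries farthest from the median of Arntl, r was −0.77, and after the group means were removed it was −0.90, so r was negative within genotypes too. DE679 and DE685 combined the lowest Arntl with the highest Dbp, and DE689 the highest Arntl with the lowest Dbp. These p-values treat the 6 libraries as exchangeable and take no account of genotype or of the resemblance of neighbouring numbers. The pair did not pass adjustment over the 45 pairs; 720 pairings cannot give a two-sided p below 0.0028.

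Across limbs, all 6 pairs of a positive limb gene with Nr1d1, Nr1d2 or Dbp had r below 0, from −0.88 to −0.21. After the group means were removed, 4 of the 6 were below 0, and Clock had 0.30 with Nr1d2 and 0.07 with Dbp. The positive limb against Per and Cry genes had r below 0 in 4 of 10 pairs, or 6 of 10 after the group means were removed, and r over all libraries ran from −0.46 (Arntl with Per2) to 0.78 (Clock with Cry1). Within the negative limb, 9 of 10 pairs had r above 0, the highest being Per1 with Per2 (r 0.84, rho 0.83, exact permutation p 0.0292 and 0.0583, adjusted p 0.656 and 0.861). Without DE684 and DE688 the r of Per1 with Per2 was 0.99, and 0.84 after the group means were removed. Nr1d1, Nr1d2 and Dbp were positively correlated in all 3 of their pairs (0.34 to 0.76). No pair of the 45 passed an adjusted p of 0.05 by r or by rho, and 2 had an unadjusted p under 0.05 for r. Arntl and Clock themselves had r 0.50 over all libraries (exact permutation p 0.346, adjusted p 0.758). After the group means were removed their r was −0.36, a value that was not tested. The r of this pair was thus above 0 only with the difference between genotypes included.

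**Figure D3:**
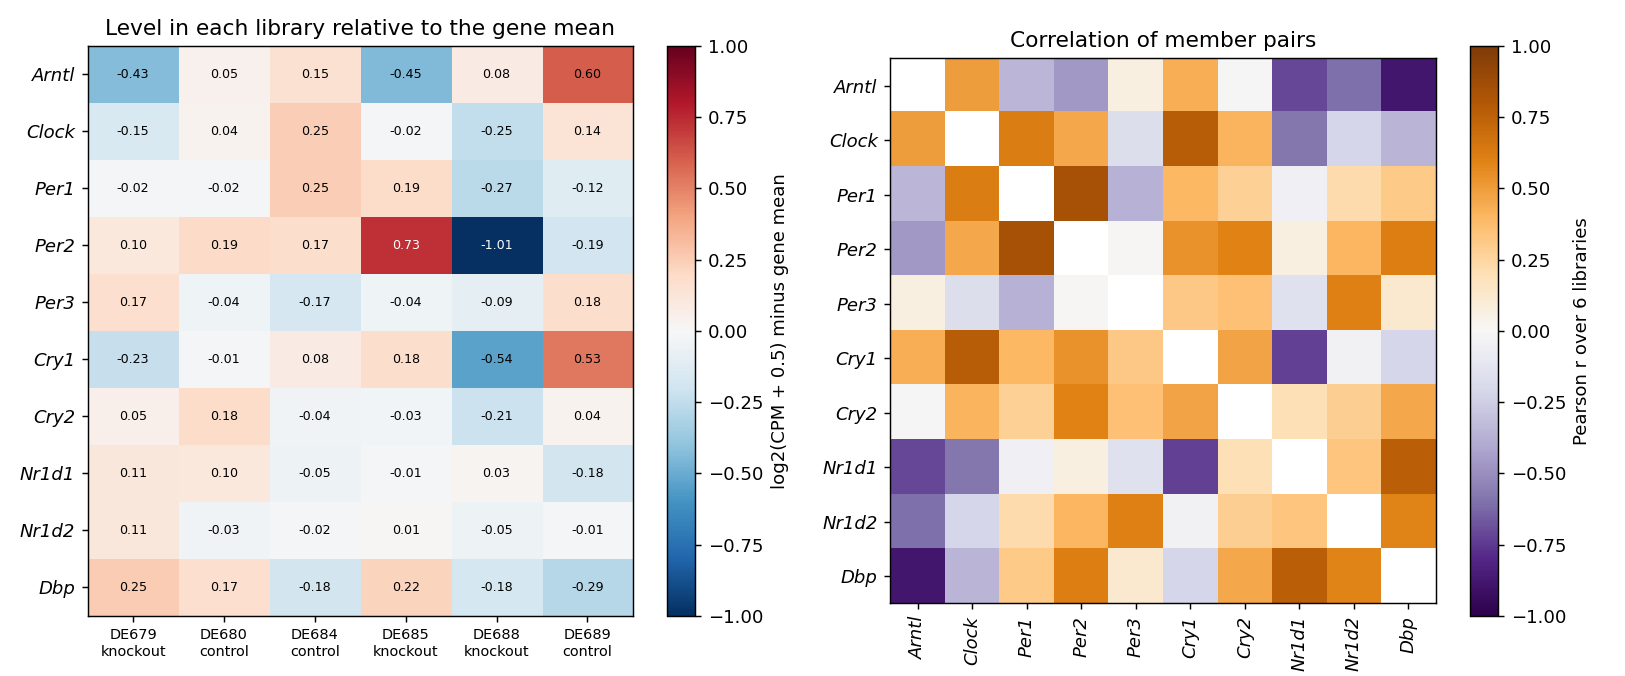
Left, log2(CPM + 0.5) of each clock gene (rows) in each library (columns, in the order of the column numbers) minus that gene's mean over the 6 libraries. Right, Pearson's r over the 6 libraries for each of the 45 pairs of members; Arntl is negative with Nr1d1, Nr1d2 and Dbp, and Per1 with Per2 is at 0.84.

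A contrast between arms of the loop put these values on 1 axis: the mean log2(CPM + 0.5) of Dbp, Nr1d1, Nr1d2 and Per3 minus that of Arntl and Clock, given as a description without a test. Per1, Per2, Cry1 and Cry2, also driven by the dimer, are not in it (log2 fold changes −0.07, 0.03, −0.40 and −0.12). Its genes were chosen with earlier results of these data known, so its separation of the groups is not separate evidence. The contrast was 1.40 in DE679, 1.23 in DE685 and 0.964 in DE688 for the knockout. For the control it was 0.957, 0.648 and 0.503 in DE680, DE684 and DE689. The groups touched without overlapping, DE688 and DE680 being nearly equal. In each neighbouring pair the knockout library stood higher, by 0.45, 0.58 and 0.46, and the mean difference was 0.50. The arm of Arntl and Clock was apart between genotypes (5.67 to 5.87 in the knockout, 6.00 to 6.33 in the control), while the arm of Dbp, Nr1d1, Nr1d2 and Per3 overlapped (6.84 to 7.07 against 6.80 to 6.96). Means were 1.20 ± 0.221 in the knockout and 0.703 ± 0.232 in the control (SD, n = 3 each).

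**Figure D4:**
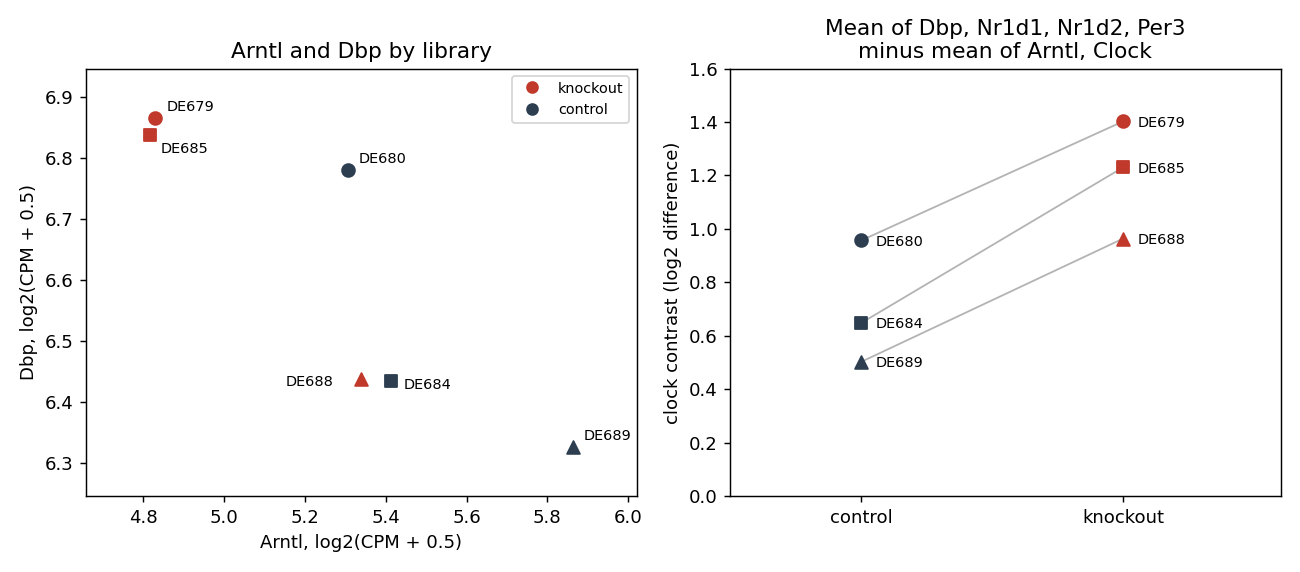
Left, Arntl (x axis) against Dbp (y axis), both log2(CPM + 0.5), in the 6 libraries; r is −0.88. Right, the contrast between clock arms (y axis, log2 difference) by genotype, with grey lines joining neighbouring column numbers; knockout libraries lie between 0.964 and 1.40 and control libraries between 0.503 and 0.957.

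Libraries with neighbouring numbers resembled each other in these genes. The deviations of the 10 members from their group means correlated at 0.81 between DE679 and DE680, 0.46 between DE685 and DE684 and 0.55 between DE688 and DE689. The other 6 combinations of a knockout with a control library gave −0.64 to 0.17. Over all 15422 genes tested the 3 neighbouring pairs gave 0.22, 0.37 and 0.40 and the other 6 gave −0.33 to −0.07, so the resemblance was not limited to the clock genes. Deviations from a group mean cancel out within each group, so positive values in some combinations force negative ones in others. The contrast with the other 6 combinations is thus partly built in. DE684 and DE685 were also the libraries with Y-linked transcripts.

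Other factors of the loop came from the same fit: 10 were read, 9 were tested, and 0 passed over all genes, or 1, Bhlhe40, with the neighbouring-number blocks. Rorb, at 6 counts or fewer, was not tested. Bhlhe40 (DEC1), a repressor that competes for E-boxes, was nearest to the threshold: it had 129.5, 144.1 and 102.3 CPM in DE679, DE685 and DE688 and 181.6, 191.5 and 164.4 CPM in DE680, DE684 and DE689. Its groups did not overlap, and its level was 69.9% of control. The log2 fold change was −0.52 (SE 0.12, interval −0.80 to −0.23, edgeR adjusted p 0.0924). It passed with the neighbouring-number blocks (−0.53, edgeR adjusted p 0.00904), with a sex covariate (adjusted p 0.0394) and in DESeq2 (adjusted p 0.00172). Those fits also called more genes over the whole table: 4.56% with the blocks, 409 of 15422 with the sex covariate and 6.05% in DESeq2, against 1.6%. Its paralog Bhlhe41 (DEC2) had a log2 fold change of 0.08 (interval −0.13 to 0.28, edgeR adjusted p 0.666), and the difference between the paralogs was not tested.

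Rora, an activator that shares its elements with the REV-ERB repressors, was at 304.3, 271.3 and 290.1 CPM in DE679, DE685 and DE688 and at 315.2, 327.3 and 352.1 CPM in DE680, DE684 and DE689. These groups did not overlap either, which held for 2 of the 9 tested factors, beside 25.6% of all genes tested. The log2 fold change of Rora was −0.20 (interval −0.36 to −0.04, edgeR adjusted p 0.188). Npas2, which can stand in for CLOCK, had 0.21 (interval −0.34 to 0.75) and Arntl2, a paralog of Arntl, −0.23 (interval −0.61 to 0.16). Ciart, a repressor of the dimer, had −0.22 (interval −0.50 to 0.06, edgeR adjusted p 0.362). Among D-box factors, the activators Tef and Hlf had −0.03 and −0.12 and the repressor Nfil3 −0.07, with edgeR adjusted p from 0.763 to 0.863. The 9 tested factors had a median log2 fold change of −0.12, with 2 higher and 7 lower.

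Modifiers of clock proteins, such as the casein kinases, gave 0 calls among 16 tested (median −0.05, 2 at an unadjusted p under 0.05). Clock output genes gave 0 calls among 9 tested (median −0.0092). Since Per1 and other clock genes also respond to hormones and stress, lists for these were read beside them. Of 8 glucocorticoid-responsive genes, 4 were higher and 4 lower, and 1 passed, beside 1.6% of all genes tested. It was Mt1, a metal-binding metallothionein, which fell by 0.44 on the log2 scale (SE 0.08, edgeR adjusted p 0.0427). At an unadjusted p under 0.05 there were 5 of the 8, beside 19% of all genes tested. The groups did not overlap for 5 of the 8, beside 25.6%. Mt1 did not pass with any single library left out or with upper-quartile factors. Fkbp5, a classical glucocorticoid target named for its size after its values were seen, had 1.14 (edgeR adjusted p 0.112). With the neighbouring-number blocks 4 of the 8 passed, 2 in each direction, where 4.56% of all genes tested passed that fit. Immediate early genes gave 0 calls among 10, with 8 higher and a median of 0.34 (1 passed with the blocks); their summed level was 511 to 780 CPM across knockout and 470 to 687 CPM across control libraries. The part of these responses in the clock values was not tested.

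Markers of other cell types moved with genotype in part, and their share in the clock values was not tested. Of 6 fibroblast markers tested, 2 passed: Dcn, a matrix proteoglycan, rose by 1.90 and Postn, a matrix protein, by 0.75 (edgeR adjusted p 0.00782 and 0.0253). The other 4 tested were not called: Col1a1, Col1a2 and Col3a1, collagen genes, had log2 fold changes of −0.38, −0.42 and −0.54 and Pdgfra, a receptor gene, 0.04, for a median of −0.17 with 3 higher and 3 lower. All 8 fibroblast markers, of which Postn made up most, summed to 892 to 1010 CPM across knockout and 488 to 590 CPM across control libraries. Col1a1, Col1a2, Col3a1, Pdgfra, Lum and Pdgfrb were each at 14.1 CPM or lower in every library. The higher sum in knockout libraries thus came from Postn and Dcn. Melanocyte markers had 0 of 6 called, all higher (79.2 to 117 against 54.0 to 78.9 CPM), and immune cell markers 0 of 7 called, all higher (43.8 to 102 against 25.8 to 83.5 CPM). Endothelial markers summed to at most 6.19 CPM and muscle markers to at most 0.635 CPM in any library. The 8 differentiated keratinocyte markers were all lower in the knockout, with 0 called, and of 7 basal markers 5 were higher, with 0 called. With the neighbouring-number blocks, 2 differentiated (lower) and 1 each of the basal, melanocyte and immune markers (higher) passed, beside 4.56% of all genes tested. In bulk samples, less RNA per cell and fewer cells of a type cannot be told apart.

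The genes whose pattern over the 6 libraries was most like that of Dbp, by Pearson's r among 671 genes with a mean of at least 5 CPM and a range of at least 1 on the log2 scale, were Hdhd3 (r 0.99), Alad (0.98), Gm4366 (0.96), Tnfaip8l3 (0.95) and Cdc42ep2 (0.95). Alad, an enzyme of haem synthesis, stood in 2 bands: 108.9, 106.1 and 109.1 CPM in DE679, DE685 and DE680, and 56.0, 64.7 and 48.9 CPM in DE688, DE684 and DE689. Gm4366, annotated as a processed pseudogene, had the same 2 bands. Its values were 83.2, 83.8 and 93.5 CPM against 47.4, 53.8 and 42.2 CPM, in the same order of libraries. Most like Arntl were Lce1m (0.96), Pcdh19 (0.95), Unc93a2 (0.94), Ly6m (0.93) and Dact2 (0.93). None of these 10 genes passed the genotype test, with edgeR adjusted p from 0.0901 to 0.8003. With 6 libraries such values describe these libraries only: 10 of the 671 genes reached r 0.90 with Dbp and 9 with Arntl. In the opposite direction, 4 of the 671 had an r of −0.90 or lower with Dbp and 17 with Arntl. Genes other than the members thus also reached such values. The 671 genes were kept for their wide range, so they give no background share for the −0.88 of Arntl with Dbp.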

How the data were processed

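Polyadenylated RNA of tail keratinocytes was made into stranded libraries, per the labels' protocols. The authors deposited estimated counts per gene and a normalized signal per gene, the latter equal to the estimated count times a constant per library plus 0.001; the submitters' processing notes name bcl2fastq 2.20, cutadapt 1.18, STAR 2.7.0f, Partek and mm10, and the counting, its use of strand and the annotation are not given in the sources used here. Estimated counts were rounded. Genes passing the filterByExpr defaults were scaled with TMM and fitted on all 6 libraries with edgeR 4.0.16 (glmQLFit, glmQLFTest), genotype as the only term, and p-values were adjusted over all genes tested. The design had foreseen raw counts; the rounded values were given the test it names. The F statistic of each fold change gave its standard error and 95% interval.

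Columns carry no sample title and were assigned to groups by KO or Ctrl in their names. The second fit blocked on neighbouring column numbers, since deviations from the group means correlated at 0.22 to 0.40 within each of the 3 neighbouring pairs; that pairing comes from the column names and the data, not from a label. Exon lengths and overlaps came from GENCODE M21 (GRCm38), whose gene ends match the table's. Alternatives used DESeq2 1.42.0 and limma 3.58.1. Some genes of the lists are not reported here and enter no list count. The edgeR fit without blocks was tested on simulated counts, and the permutation was checked against another implementation on a made-up example. The members, lists and tests were chosen with earlier results of these data known; named genes were the members, Gpr161, Gli1, the other loop factors, genes of other lists with an adjusted p under 0.05, and the 5 most like Dbp and Arntl; Fkbp5, Thra, Sphk2, D930015M05Rik and Rorb were named outside it or after their values were seen. Totals of counts cover counting error only, as the labels mention no molecular identifiers.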

Additional observations from a re-analysis of the deposited data

How the results depend on the processing

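The members called stayed at 0 of 10 with relative log expression or upper-quartile factors, no filter, a minimum mean of 1 CPM, DESeq2, limma-voom, limma on the authors' values, a sex covariate and each library left out; the neighbouring-number blocks gave 1, Arntl, as did each of 3 block fits with a pair left out, an alternative chosen after seeing the data. Genes called over the whole table numbered 247, against 879 with DESeq2, 409 with the sex covariate and 704 with the blocks, for which the cause was not tested, and 69 to 121 with a library left out, where fewer samples enter. The share higher in the knockout was 77.7%, against 64.7% with DESeq2, 66.1% with the blocks and 79.8% (without DE680) to 96.7% (without DE679, 89 higher and 3 lower) with a library left out. Arntl, Clock, Cry1 and Cry2 stayed lower in every alternative run, Arntl between −0.74 (without DE688) and −0.34 (without DE689). Nr1d1, Nr1d2 and Dbp stayed higher in every alternative run. Per2 reversed with limma-voom (−0.18), limma on the authors' values (−0.12), the sex covariate (−0.057) and the blocks (−0.11), and spanned −0.43 to 0.38 with a library left out. With a library left out, Per1 ranged from −0.19 to 0.045, Per3 from −0.055 to 0.12, Tef from −0.11 to 0.028 and Bhlhe41 from −0.0040 to 0.12, each changing sign. No paired analysis was possible by the labels' replicate numbers, because the columns carry none; the paired fit that was run used neighbouring column numbers. Depth kept Rorb, Hif3a, Lum, Pdgfrb, Emcn, Lyz2, Myh1 and Ckm of the lists, all at 23 counts or fewer per library, out of the tests; the members had at least 467 counts in every library.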
